A study of Mus musculus with 10 samples.

Results

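A set of 9 genes of iron handling and of ferroptosis was examined across every deposited table that compared 2 libraries. They were chosen by name, and their members were all listed regions whose deposited gene symbol was Slc40a1, Fth1, Ftl1, Tfrc, Slc11a2, Gpx4, Slc7a11, Hmox1 or Acsl4. This gave 128 regions of 340994 over 5 tables, and all 9 genes had a region in at least 1 table. The cells were cardiac fibroblasts in primary culture from mouse, and the assay was CUT&Tag, which uses an antibody to bring a transposase to chromatin so that DNA near the antigen can be sequenced. The conditions were NC (a control whose label gives no treatment), TGF-β, and TGF-β after transfection of an siRNA against hexokinase 1 (siHK1), an enzyme of the first step of glycolysis. Antibodies were against lactylated lysine 9 of histone H3 (H3K9lc) and the transcription factors c-JUN, SMAD3 and NFATC2, with TGF-β and siHK1 libraries for each antibody and an NC library read as H3K9lc from the table its label names. TGF-β was given at 5 ng/ml for 24 h. Strain and age are not given in the labels, every condition and antibody had 1 library, and all cells of the siHK1 libraries also received TGF-β. The TGF-β H3K9lc library entered both H3K9lc comparisons, and no difference between conditions could be tested.

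Iron enters cells bound to transferrin through the transferrin receptor (Tfrc), crosses the endosomal membrane through the divalent metal transporter (Slc11a2), is stored in the ferritin shell made of heavy (Fth1) and light (Ftl1) chains, and leaves through ferroportin (Slc40a1). Heme oxygenase-1 (Hmox1) releases iron from heme. Ferroptosis is an iron-dependent death in which membrane lipids are peroxidised. It is opposed by the cystine importer xCT (Slc7a11), which feeds glutathione synthesis, and by the glutathione peroxidase that reduces lipid peroxides (Gpx4), and it is favoured by Acsl4, which loads polyunsaturated fatty acids for entry into phospholipids. Several of these genes are textbook targets of NRF2 through the antioxidant response element (ARE), whose sequence can contain the AP-1 site that c-JUN binds.

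c-JUN was the antibody with the most reads at these genes, so the letters under its regions are shown first. Each line gives 150 bases of the plus strand, 5′ to 3′ (GRCm38.p6, RefSeq), from a c-JUN region outside any annotated exon, with capitals for an AP-1 match (TGACTCA or TGAGTCA) or an ARE core match (TGACNNNGC) on either strand. They come from the most-read c-JUN regions with an AP-1 match, up to 2 for each gene. Only the 6 genes with RefSeq promoter entries were covered. The c-JUN regions of Slc40a1, Slc11a2 and Hmox1 were left out here and in the member counts below, so their letters are not known from this.
Ftl1, 0.822 kb upstream (chr7:45460933-45461082): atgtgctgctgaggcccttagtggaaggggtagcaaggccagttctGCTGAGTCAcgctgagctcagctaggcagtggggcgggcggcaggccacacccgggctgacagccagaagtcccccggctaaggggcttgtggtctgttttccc
Fth1, 1.75 kb upstream (chr19:9978570-9978719): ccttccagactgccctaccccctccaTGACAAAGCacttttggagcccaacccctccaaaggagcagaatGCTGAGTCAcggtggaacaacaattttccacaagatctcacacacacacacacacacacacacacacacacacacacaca
Fth1, 34.2 kb upstream (chr19:9945949-9946098): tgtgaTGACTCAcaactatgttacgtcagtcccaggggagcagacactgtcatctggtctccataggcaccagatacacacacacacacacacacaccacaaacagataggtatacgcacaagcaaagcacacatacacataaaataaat
Gpx4, 4.97 kb downstream of the first start (chr10:80052175-80052324): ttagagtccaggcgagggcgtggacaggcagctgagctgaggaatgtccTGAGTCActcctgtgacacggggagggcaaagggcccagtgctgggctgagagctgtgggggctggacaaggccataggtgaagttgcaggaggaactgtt
Slc7a11, 293 kb upstream (chr3:50737309-50737458): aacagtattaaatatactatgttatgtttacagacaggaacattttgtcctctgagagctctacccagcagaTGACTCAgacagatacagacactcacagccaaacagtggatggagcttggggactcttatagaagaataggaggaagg
Slc7a11, intronic, 89.1 kb downstream (chr3:50354193-50354342): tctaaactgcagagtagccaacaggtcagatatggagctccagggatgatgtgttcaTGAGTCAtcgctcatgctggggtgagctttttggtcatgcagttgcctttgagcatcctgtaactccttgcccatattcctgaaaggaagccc
Acsl4, 99.5 kb upstream (chrX:142490311-142490460): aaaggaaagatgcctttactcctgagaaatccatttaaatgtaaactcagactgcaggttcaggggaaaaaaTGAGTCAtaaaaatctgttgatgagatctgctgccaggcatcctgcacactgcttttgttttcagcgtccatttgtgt
Acsl4, 97.6 kb upstream (chrX:142488231-142488380): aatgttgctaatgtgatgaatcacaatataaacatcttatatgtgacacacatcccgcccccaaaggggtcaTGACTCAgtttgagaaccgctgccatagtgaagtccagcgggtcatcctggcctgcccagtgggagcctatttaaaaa
Both ferritin genes had a c-JUN region whose AP-1 match sat inside an ARE core, as the 9-base run GCTGAGTCA, the reverse complement of TGACTCAGC. This run was searched for after it had been seen. It was found in the central 300 bases of 2 of 27 c-JUN regions of the 6 genes with RefSeq promoter entries, and of 2.95% of all c-JUN regions. AP-1 matches were in 13 of the 27 windows (48.1%, 95% interval 28.7 to 68.1%) and in 33.1% of all 72990 c-JUN windows, and ARE core matches, which can overlap AP-1 matches, in 6 (22.2%, 8.62 to 42.3%) and in 16.1%. Both background shares lay inside the members' intervals. SMAD letters (CAGACA or CAGACC) were in 9 windows (33.3%) against 42.6% of all, NFAT letters (TGGAAA or AGGAAA) in 13 (48.1%) against 47.2%, and the GC box (GGGCGG) in 7 (25.9%) against 13.1%.

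Around the start sites these letters were counted as well. RefSeq promoter entries of 300 bases were found for Fth1, Ftl1, Tfrc, Gpx4, Slc7a11 and Acsl4, 11 entries in all, some of which overlap, and not for Slc40a1, Slc11a2 and Hmox1. AP-1 letters were in 0 of the 11 and in 5.20% of all 32851 promoters, and ARE core letters in 0 and in 12.4%, and with 11 entries a count of 0 is not apart from either share. The GC box was in 7 of the 11 (35.7% of all promoters), with no match in the Slc7a11 entry. SMAD letters were in 3 entries, all of Gpx4 (34.0% of all), and NFAT letters in 1, also of Gpx4 (43.5% of all). These matches describe letters and are not shown to be bound sites.

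Reads were dense for c-JUN and sparse for the other factors. Over all listed regions the densities were 112 and 60.3 reads per kb in the TGF-β and siHK1 c-JUN libraries, 72.0 and 41.0 for H3K9lc, 29.5 and 21.0 for SMAD3, 28.6 and 17.6 for NFATC2, and 3.77 in the NC library. Total reads over listed regions ran from 354599 (siHK1, NFATC2) to 4215447 (TGF-β, c-JUN) outside NC, which had 115572. The siHK1 library had fewer listed reads than its TGF-β partner for every antibody. Sequencing depth is not given in the files, so fewer reads sequenced and less signal in all regions cannot be told apart. Raw reads are given first, and ratios were made after scaling the library with more listed reads down to the total of the other. Ratios are log2(scaled reads + 0.5) differences, siHK1 over TGF-β, with an exact 95% counting interval. Such an interval covers counting error alone and does not stand for replicate error, and PCR copies make it too narrow. Of the member regions, 23 of 33 for SMAD3 and 27 of 33 for NFATC2 had under 10 reads in both libraries together (71.2% and 81.9% of all regions), against 1 of 36 for c-JUN.

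Almost every region was listed because a peak was called there in at least 1 of the libraries of its table (a peak in neither at 0.0835 to 0.332% of regions), and this choice bears on direction. Of the SMAD3 member regions, 15 had a peak in the TGF-β library alone, 17 in the siHK1 library alone and 1 in both, and for NFATC2 these were 15, 16 and 2. Over all SMAD3 regions the median log2 ratio was 1.35 where the peak was in the siHK1 library alone, -1.43 where it was in the TGF-β library alone and 0.07 where it was in both. The NFATC2 medians were 1.38, -1.48 and -0.00. They were less far apart for c-JUN, at 0.98, -0.60 and 0.07, and for H3K9lc, at 0.96, -0.53 and 0.07. A region or gene that was listed through 1 library alone was therefore chosen by the library in which it was high. Its ratio and interval are a description, and an interval that leaves out 0 there is no sign of a difference between conditions. Scaling to equal totals also takes out any change shared by all regions, so ratios are relative to the rest of the table.

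c-JUN regions were listed at all 9 genes, SMAD3 regions at 8 (none at Slc40a1), NFATC2 regions at 9 and H3K9lc regions at 4 (Slc40a1, Tfrc, Slc7a11 and Acsl4). The c-JUN reads per kb in the TGF-β library were 180 at Ftl1 (counting interval 157 to 206), 152 at Hmox1 (136 to 169), 111 at Fth1 (100 to 123), 102 at Gpx4 (86.0 to 120), 86.1 at Slc7a11 (75.0 to 98.2), 75.8 at Slc11a2 (62.3 to 91.3), 69.3 at Acsl4 (62.9 to 76.2), 40.8 at Slc40a1 (26.4 to 60.3) and 31.0 at Tfrc (16.5 to 53.1). Ftl1 and Hmox1 overlapped in their intervals and stood above Fth1, whereas Slc40a1 and Tfrc overlapped each other and stood below Acsl4. The median gene had 78.9 reads per kb, so Ftl1 and Hmox1 lay at the percentiles 93.6 and 89.0 of all genes with a c-JUN region. In the siHK1 library Hmox1 (99.3) and Ftl1 (86.1) again had the highest densities, with a median gene at 42.2.

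**Figure D1:**
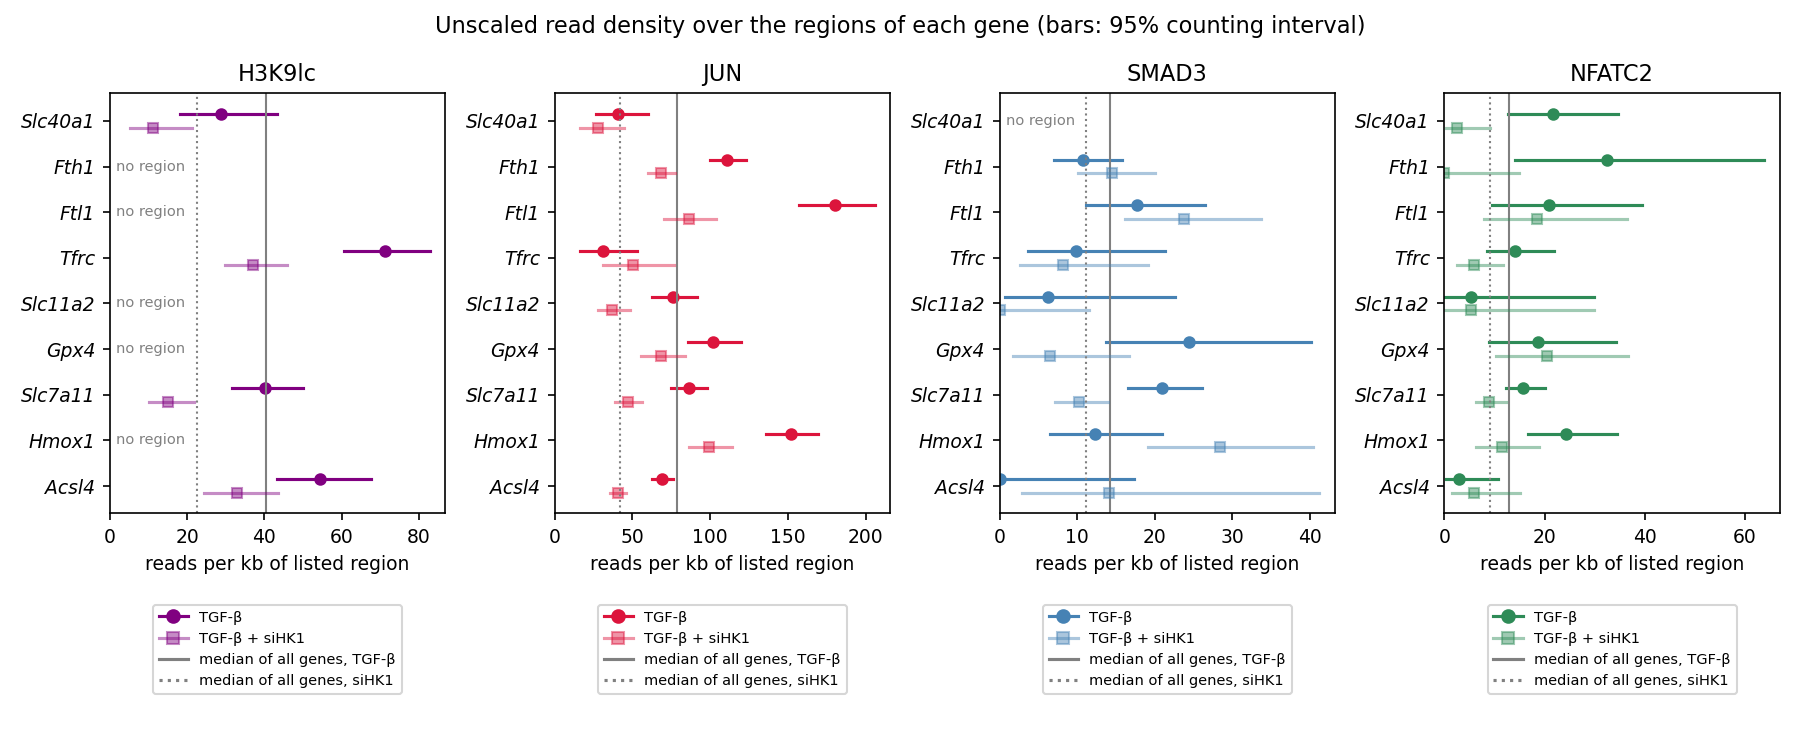
Reads per kb over the listed regions of each gene (horizontal axis), unscaled, for each antibody; circles are the TGF-β library, squares the siHK1 library, bars 95% counting intervals and grey lines the median of all genes in each library. c-JUN density was highest at Ftl1 (180) and Hmox1 (152) in the TGF-β library, and 5 genes had no H3K9lc region.

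The first comparison asked whether HK1 depletion in TGF-β-treated cells changed c-JUN at these genes. Past 2-fold in scaled reads, 1 of 9 genes was higher (Tfrc) and 0 were lower, where 3.12% of all genes with a c-JUN region were higher and 4.30% lower. The Tfrc region was 1 of the 4 member regions, out of 36, listed through a siHK1 peak alone (12.1% of all c-JUN regions). Without scaling 0 genes were past 2-fold higher and 2 lower, where 0.913% of all genes were higher and 39.2% lower. The median log2 ratio of the 9 genes was 0.19, and that of all genes -0.02, with quartiles at -0.28 and 0.22. Summed over the 9 genes there were 1868 reads in the TGF-β library and 1113 in the siHK1 library, a log2 ratio of 0.15 (0.04 to 0.25). With scaling to regions called in both libraries c-JUN ratios moved down by 0.07 before the pseudocount. Under that scaling 0 lies inside the summed interval. The same holds for c-JUN intervals of single genes and regions below whose lower limit is above 0 by less than 0.07. Peaks were called in both libraries at 24 of the 36 member regions (49.7% of all c-JUN regions).

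For SMAD3, 2 of 8 genes were lower (Slc11a2, Gpx4) and 2 higher (Hmox1, Acsl4), where 18.5% of all genes were lower and 24.9% higher. Slc11a2 and Acsl4 had 3 reads or fewer in each library, so no fold is given for them, and without them 1 gene was lower and 1 higher. The median log2 ratio was 0.56 over the 8 genes and 0.17 over all genes, with quartiles at -0.70 and 1.0. Without scaling 3 genes were lower and 2 higher (29.2% and 15.3% of all genes). For NFATC2, 2 of 9 genes were lower (Slc40a1, Fth1) and 1 higher (Acsl4), where 14.2% of all genes were lower and 23.7% higher. Fth1 had no read in the siHK1 library, and with it set at its bound 1 gene was lower and 1 higher. The call of Acsl4 rests on 2 and 4 reads and its interval holds 0. Without scaling 4 genes were lower and 0 higher (30.5% and 13.6% of all genes). The NFATC2 median was -0.12 for the 9 genes (-0.25 with genes at 0 reads set at their bound and those at 3 reads or fewer in both libraries left out), and 0.17 over all genes. For H3K9lc, 0 of 4 genes were past 2-fold in either direction, where 6.37% of all genes were lower and 6.31% higher (without scaling, 2 lower and 0 higher, against 34.7% and 2.83% of all genes), and the medians were -0.32 over the 4 genes and -0.06 over all genes.

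**Figure D2:**
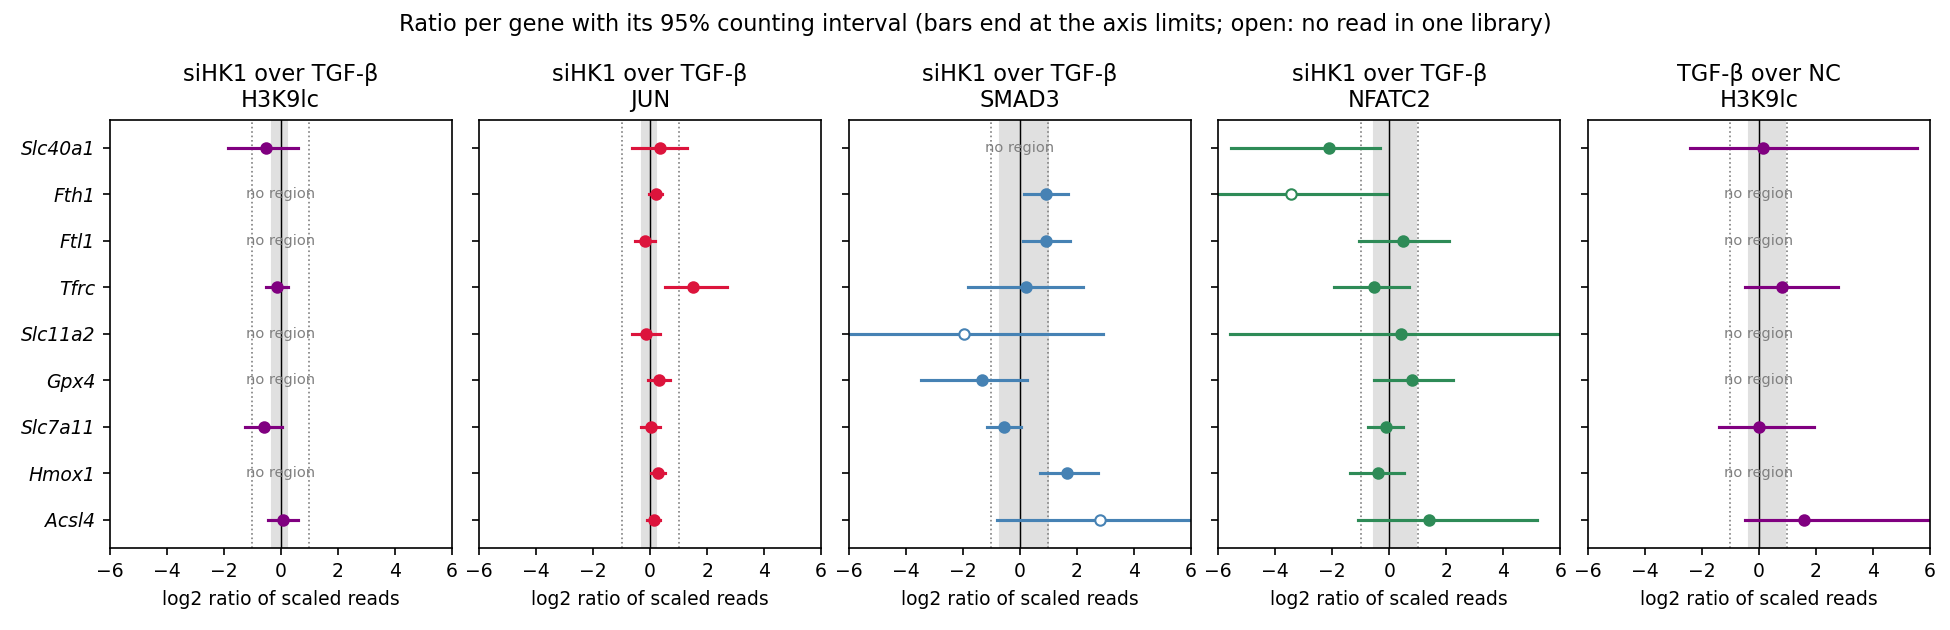
Log2 ratio of scaled reads for each gene (horizontal axis) with its 95% counting interval, in each comparison; grey bands run from the lower to the upper quartile of all genes, dotted lines mark 2-fold and open circles mark genes without a read in one library. Hmox1 had a SMAD3 ratio of 1.65 and an NFATC2 ratio of -0.38, and Tfrc was the gene past 2-fold for c-JUN (1.52).

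At Slc40a1, the only known cellular iron exporter, every listed region lay away from the promoter and outside the gene. For c-JUN, the region 45.6 kb upstream (chr1:45972089-45972478), in an exon of another transcript, had 20 reads in the TGF-β library and 9 in the siHK1 library. The region 52.7 kb downstream of the start (chr1:45873559-45873780) had 5 and 8. The summed c-JUN ratio of 25 to 17 reads was 0.33 (-0.64 to 1.28), an interval that holds 0. NFATC2 reads were 10 and 1 at chr1:45889688-45890088 and 7 and 1 at chr1:45934905-45935289, which lies 8.38 kb upstream. Summed, 17 reads against 2 gave -2.13 (-5.55 to -0.31). Both regions were listed through a peak in the TGF-β library alone, so this direction was built into their listing. The H3K9lc region 32.3 kb upstream (chr1:45958802-45959600) had 23 and 9 reads, a ratio of -0.52 (-1.84 to 0.62).

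The ferritin heavy chain gene Fth1 had 7 c-JUN regions over 34.2 kb upstream to 1.93 kb downstream of its start. The most-read, 34.2 kb upstream (chr19:9945788-9946410), had 147 reads in the TGF-β library and 79 in the siHK1 library, and its neighbour (chr19:9946943-9947531) had 96 and 46. Their ratios were -0.00 (-0.42 to 0.40) and -0.17 (-0.71 to 0.35), and both intervals hold 0. The 2 promoter-class regions, 1.75 kb upstream (chr19:9978489-9978850), where the joined AP-1 and ARE letters are, and 1.93 kb downstream (chr19:9982525-9983037), had 32 and 30 reads and 35 and 19 reads. The first of these had a ratio of 0.78 (0.03 to 1.56) and the second 0.01 (-0.88 to 0.86). Over the gene, 386 and 238 reads gave 0.19 (-0.04 to 0.43).

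SMAD3 at Fth1 was spread thinly over 7 regions with 1 to 11 reads each per library. Its sum was 26 reads in the TGF-β library and 35 in the siHK1 library (0.91, 0.15 to 1.71), with a peak called at 1 region in the former and 6 in the latter, so 6 of the 7 regions were listed through the library with more reads in the sum. The most-read SMAD3 region, 8.64 kb upstream (chr19:9971471-9971954), had 11 and 5 reads and so went the other way from the sum, with an interval that holds 0 (-2.52 to 1.0). The promoter-class SMAD3 region (chr19:9982775-9983000), which overlaps a c-JUN region, had 6 and 5. The sole NFATC2 region (chr19:9954783-9955029), also under a c-JUN region, had 8 reads in the TGF-β library and 0 in the siHK1 library. Taking 3 reads as what a count of 0 allows, and the 8 reads as exact, it was at least 1.64-fold lower, whereas its counting interval on the log2 scale reached up to -0.07. This region, too, was listed through a TGF-β peak alone.

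Ftl1, the ferritin light chain gene, had both of its c-JUN regions at the promoter. The region 0.822 kb upstream (chr7:45460706-45461460), with the joined AP-1 and ARE letters printed above, had 173 and 73 reads, the highest c-JUN count of any member region in the TGF-β library. Its ratio was -0.35 (-0.77 to 0.05). The region over the start itself (chr7:45459647-45460099) had 45 and 31 reads, a ratio of 0.35 (-0.35 to 1.05), and the gene sum of 218 and 104 gave -0.17 (-0.53 to 0.17). SMAD3 had regions over the same c-JUN regions, with 11 and 5 reads at the start (chr7:45459588-45459845) and 5 and 11 reads 1.32 kb upstream (chr7:45461207-45461604). Another promoter-class SMAD3 region (chr7:45459195-45459432) had 5 and 8, and the sum over 4 regions, 3 of them listed through a siHK1 peak alone, was 23 and 31 (0.91, 0.10 to 1.77). For NFATC2, reads were 7 and 2 at chr7:45457270-45457476 and 2 and 6 at chr7:45459057-45459282, both promoter-class, and the sum of 9 and 8 gave 0.49 (-1.05 to 2.08). No H3K9lc region was listed at either ferritin gene.

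Tfrc, the transferrin receptor gene, had 71.1 H3K9lc reads per kb in the TGF-β library (60.7 to 82.8), an interval that overlaps that of Acsl4 (54.4, 43.2 to 67.6) and lies above those of Slc7a11 (40.1) and Slc40a1 (28.8, 18.2 to 43.2). Its 1 c-JUN region spanned the start site (chr16:32608836-32609254) with 13 reads in the TGF-β library and 21 in the siHK1 library, a ratio of 1.52 (0.52 to 2.70). A peak was called in the siHK1 library alone, and all c-JUN regions of that kind had a median of 0.98, with an upper quartile of 1.49. The region held no AP-1 or ARE core letters but 2 GC box matches in its central 300 bases. With regions below the table's median level left out, this call was lost because the region itself was left out. H3K9lc lay 10.1 to 27.3 kb upstream in 5 regions, none at the promoter. The most-read (chr16:32584282-32585261) had 72 and 35 reads, and its neighbours had 40 and 23 (chr16:32585688-32586076), 26 and 9 (chr16:32583514-32583915) and 24 and 7 (chr16:32581364-32581627). The fifth (chr16:32598495-32598779) had 3 and 12 reads, a ratio of 2.50 (0.92 to 5.28) against a range of -0.92 to 0.01 at the other 4. It was listed through a siHK1 peak alone, and 3 of the other 4 through a TGF-β peak alone, so the contrast in direction follows the peak calls. Over the gene 165 and 86 reads gave -0.13 (-0.52 to 0.26), at the percentiles 88.9 and 85.6 of all genes in reads per kb. All 5 regions were repeat-masked over their whole length in the GRCm38.p6 reference (100% each). SMAD3 reads at Tfrc were 6 and 5 over 2 regions, the more-read with 5 and 3 (chr16:32574541-32574831), and NFATC2 reads were 19 and 8 over 4 regions (-0.52, -1.95 to 0.71), the most-read with 6 and 4 (chr16:32560890-32561354).

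Slc11a2, the gene of the divalent metal transporter, had 4 c-JUN regions and almost no reads for the other factors. The most-read c-JUN region was intronic, 13.6 kb downstream of the start (chr15:100410959-100411511), with 53 and 26 reads, followed by one in the 3′ UTR class (chr15:100389001-100389367) with 35 and 17. The promoter-class region (chr15:100422588-100422775) had 8 reads and 1 read, a ratio of -1.68 (-7.58 to 0.79). The sum of 110 and 54 reads gave -0.13 (-0.63 to 0.35). SMAD3 had 2 and 0 reads (chr15:100389464-100389781) and NFATC2 1 and 1 (chr15:100399467-100399653), which is too few for a comparison.

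Hmox1 was the member at which c-JUN, SMAD3 and NFATC2 regions coincided. c-JUN had 139 and 89 reads 9.32 kb upstream (chr8:75083614-75084300) and 161 and 99 reads 3.63 kb upstream (chr8:75089071-75089994). Ratios were 0.25 (-0.15 to 0.64) and 0.19 (-0.19 to 0.56). At the promoter (chr8:75092978-75093510), 0.111 kb upstream, c-JUN had 26 and 25 reads, 0.81 (-0.02 to 1.69), with a peak called in the siHK1 library alone. The sum of 326 and 213 gave 0.28 (0.02 to 0.53).

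At the farther of these upstream regions the other factors were listed through different libraries, SMAD3 by a peak in the siHK1 library alone and NFATC2 by a peak in the TGF-β library alone. SMAD3 (chr8:75083700-75084034) had 5 reads in the TGF-β library and 20 in the siHK1 library, a ratio of 2.34 (1.04 to 4.26). NFATC2 (chr8:75083639-75084034) had 16 and 3, a ratio of -1.57 (-4.14 to 0.09). These opposite directions are those of the peak calls that put each region in its table. All SMAD3 regions listed through a siHK1 peak alone had quartiles of 0.78 and 2.15, so this ratio lay above the upper one. All NFATC2 regions listed through a TGF-β peak alone had quartiles of -2.57 and -0.65, and this ratio lay between them. At the nearer region SMAD3 (chr8:75089287-75089775) had 6 and 9 reads and NFATC2 (chr8:75089301-75089665) 9 and 10, with ratios of 1.0 (-0.57 to 2.85) and 0.80 (-0.60 to 2.33). Here the NFATC2 peak was called in both libraries and the SMAD3 peak in the siHK1 library alone. Inside the gene, promoter-class regions had 2 reads and 1 read for SMAD3 (chr8:75096448-75096680) and 5 and 0 for NFATC2 (chr8:75096071-75096372), and upstream NFATC2 had 2 and 2 (chr8:75091867-75092118). Summed, SMAD3 reads were 13 and 30 (1.65, 0.72 to 2.76), past 2-fold, and NFATC2 reads were 32 and 15 (-0.38, -1.38 to 0.53). Without the far upstream region, an alternative chosen after seeing the data, 8 and 10 SMAD3 reads were left, a ratio of 0.77 (-0.68 to 2.36) that was no longer past 2-fold. The region within 3 kb of a start alone, with 2 reads and 1 read, gave -0.36. All 3 SMAD3 regions of Hmox1 were listed through a siHK1 peak alone, and over them the gene stood at the percentile 40.1 of genes in SMAD3 reads per kb in the TGF-β library and at 94.4 in the siHK1 library.

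**Figure D3:**
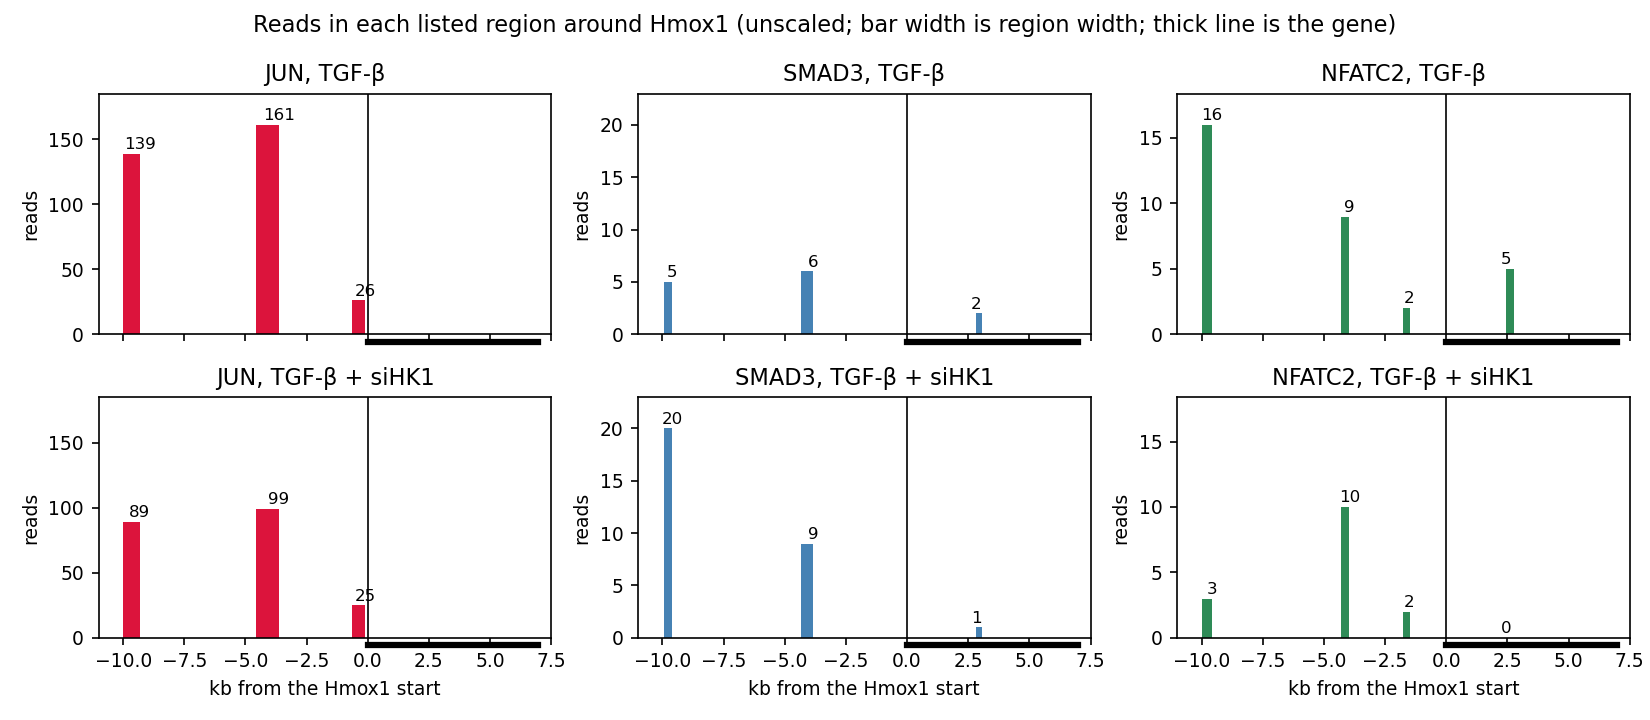
Unscaled reads (vertical axis, one scale for each factor) in each listed region around Hmox1 against distance from its start in kb, in the TGF-β library (top) and the siHK1 library (bottom); bar width is region width and the thick line is the gene. At the region farthest upstream, SMAD3 had 5 and 20 reads (listed through a siHK1 peak), NFATC2 16 and 3 (listed through a TGF-β peak) and c-JUN 139 and 89 (a peak in both).

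Gpx4, which reduces phospholipid peroxides, had its c-JUN reads inside the gene near annotated alternative starts. The region 6.25 kb downstream of the first start (chr10:80053421-80054426) had 88 and 49 reads and the region 4.97 kb downstream (chr10:80052134-80052517) 54 and 46, both promoter-class. Ratios were 0.05 (-0.49 to 0.57) and 0.65 (0.06 to 1.26), and the sum of 142 and 95 gave 0.31 (-0.08 to 0.70). SMAD3 reads were 8 and 3 at chr10:80060258-80060608 and 7 and 1 at the promoter-class chr10:80048691-80048954, and their sum of 15 and 4 gave -1.31 (-3.46 to 0.24), past 2-fold with an interval that holds 0 and with both regions listed through a TGF-β peak alone. The region with 8 and 3 reads lies past the end of Gpx4, in an exon of another transcript. NFATC2 had 8 and 7 reads at chr10:80053275-80053569, promoter-class and under the larger c-JUN region, and the gene sum was 10 and 11 (0.79, -0.54 to 2.23).

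Slc7a11, the cystine importer gene, is annotated over 551 kb, and it had the most regions for SMAD3 (13), NFATC2 (15) and H3K9lc (6). Of its 5 c-JUN regions the most-read was intronic, 4.95 kb downstream of the start (chr3:50438087-50438666), with 58 and 55 reads. Its reads were near equal before scaling, and its scaled ratio was 0.81 (0.26 to 1.37). The region 293 kb upstream (chr3:50736952-50737699) had 62 and 16 reads, -1.04 (-1.95 to -0.25), and the intronic region 89.1 kb downstream (chr3:50354140-50354547) had 54 and 16, -0.84 (-1.77 to -0.04). The last of these was listed through a TGF-β peak alone, whereas the other 2 had a peak in both libraries. After scaling, the counting intervals of those 2 lay on either side of 0. Before scaling the reads of neither were higher in the siHK1 library. At the promoter (chr3:50443391-50443846) there were 21 and 14 reads, 0.30 (-0.78 to 1.35), and the gene sum of 219 and 120 gave 0.02 (-0.31 to 0.35).

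H3K9lc at Slc7a11 lay 17.7 to 154 kb upstream, with 79 reads in the TGF-β library and 30 in the siHK1 library (-0.58, -1.24 to 0.04). A peak was called at 6 of 6 regions in the TGF-β library and at 1 in the siHK1 library. The most-read region (chr3:50473200-50473553) had 20 and 9 reads. One H3K9lc region (chr3:50461310-50461720, 13 and 8 reads) overlapped a SMAD3 region starting at the same base (chr3:50461310-50461690, 12 and 2 reads), the sole overlap of an H3K9lc region with a factor region among the 9 genes. SMAD3 over 13 regions had 78 and 38 reads (-0.54, -1.14 to 0.03). NFATC2 over 15 regions had 67 and 38 (-0.12, -0.73 to 0.48). The most-read region of both factors was the same place 370 kb upstream, with 28 and 21 SMAD3 reads (chr3:50813820-50814353) and 29 and 13 NFATC2 reads (chr3:50813762-50814265), and 74.9% and 83.9% of these regions were repeat-masked.

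Acsl4, whose enzyme activates arachidonic and adrenic acid, had the most c-JUN regions, 10, from 99.5 kb upstream to 53.4 kb downstream of its start. The most-read (chrX:142426081-142427095), 35.5 kb upstream, had 101 and 57 reads, 0.07 (-0.43 to 0.55). The promoter region (chrX:142390025-142391025) had 34 and 28, 0.60 (-0.16 to 1.38). The sum of 429 and 251 gave 0.12 (-0.11 to 0.35). Its H3K9lc region 132 kb upstream (chrX:142522990-142524478) had 81 and 49 reads, 0.09 (-0.46 to 0.62), and was 99.5% repeat-masked. SMAD3 had 0 and 3 reads (chrX:142444506-142444718) and NFATC2 2 and 4 over 2 regions (1.38, -1.10 to 5.17), the more-read with 2 and 2 (chrX:142476091-142476492), so with so few reads no difference could be shown for either factor, although the NFATC2 ratio counted as past 2-fold. Over the 7877 genes listed in all 4 siHK1 tables, the genes nearest to Acsl4, the member with the most scaled reads, were Gm12505, Gm567 and Acot12, by a root mean square difference of 0.56, 0.62 and 0.71 over 8 log2 values of reads, each as a rate over the library's listed reads and with 1 added. The 8 values include the SMAD3 and NFATC2 reads of Acsl4, which were 4 or fewer in each library. Nearest genes could not be computed for Slc40a1, which had no SMAD3 region.

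The positions of the regions were compared with those of all regions of the same antibody. Promoter-class regions were 11 of 36 for c-JUN (30.6%, 95% interval 16.3 to 48.1%), 6 of 33 for SMAD3 (18.2%, 6.98 to 35.5%), 5 of 33 for NFATC2 (15.2%, 5.11 to 31.9%) and 0 of 13 for H3K9lc (0 to 24.7%). All regions of each antibody gave 25.6%, 18.9%, 17.0% and 6.78%, each inside the members' interval. The intervals of the antibodies overlap one another, and no difference between antibodies was tested. More than 50% of the bases were repeat-masked in 11 of the 13 H3K9lc regions (84.6%, 54.6 to 98.1%), where 55.7% of all H3K9lc regions were so. For c-JUN this held for 2 of 36 regions (5.56%) and for 6.71% of all. Neighbouring regions of 1 gene are not independent, and how reads with several equally good positions were placed is not given in the sources used here.

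**Figure D4:**
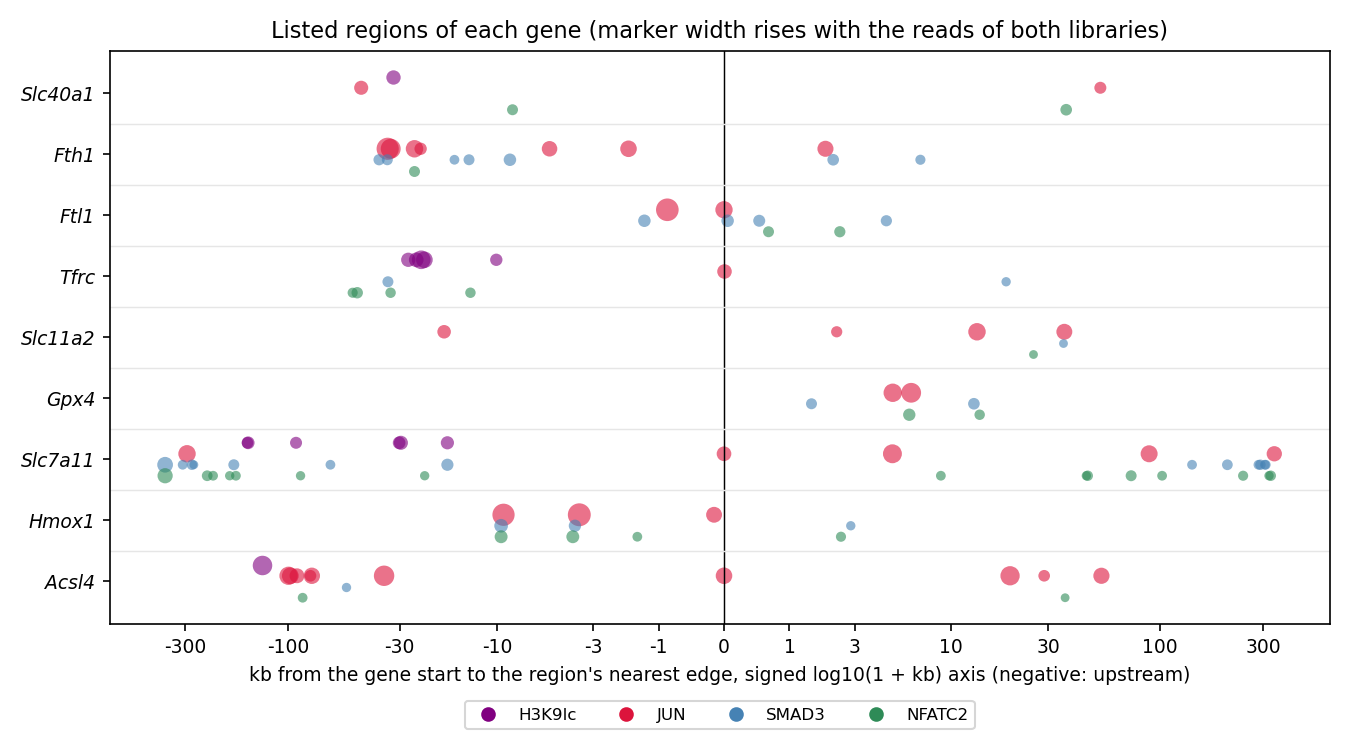
Each listed region of the 9 genes in the 4 siHK1 comparisons by its distance from the gene start in kb (signed log axis, negative is upstream), coloured by antibody, with marker width rising with reads. H3K9lc regions lie 10.1 kb or more upstream, and c-JUN regions lie over the start of Ftl1, Tfrc, Slc7a11 and Acsl4.

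**Figure D5:**
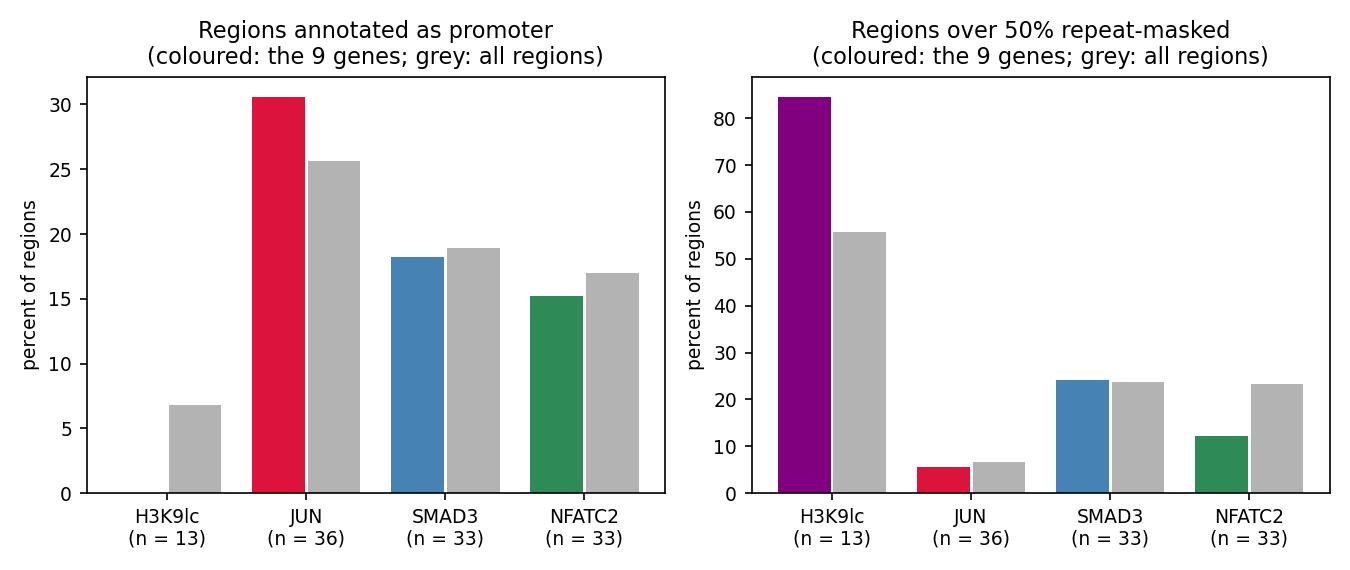
Percent of regions (vertical axis) annotated as promoter (left) and with more than 50% of their bases repeat-masked (right) for the 9 genes (coloured) and for all regions (grey) of each antibody. Of the H3K9lc regions of these genes 84.6% were mostly repeat-masked and 0% were at promoters.

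Overlap of listed regions among antibodies was near the background. A listed region may have its peak in either library, so an overlap does not show that both factors were found in the same condition. Of the 115 member regions in the 4 siHK1 tables, 24 overlapped a listed region of another antibody by at least 1 bp (20.9%, 13.9 to 29.4%), and 23.9% of all regions did. c-JUN regions overlapped SMAD3 regions in 6 of 36 cases (16.7%, and 18.1% of all c-JUN regions), NFATC2 regions in 4 (11.1%, 15.4%) and H3K9lc regions in 0 (up to 9.74%, 6.07%). The 6 SMAD3 overlaps were at Fth1, Ftl1 and Hmox1, with 2 at each.

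The remaining comparison set the TGF-β H3K9lc library against the NC library, whose antibody is taken from the table its label names and which had few listed reads. Over the 13 member regions NC had 10 reads, with 0 or 1 in each, and TGF-β had 333. Tfrc had 4 and 148 reads, Slc7a11 4 and 81, Slc40a1 1 and 23, and Acsl4 1 and 81. A peak was called at 12 regions in the TGF-β library alone and at 1, near Slc7a11 (chr3:50666402-50666779, 1 and 3 reads), in the NC library alone, and no member region had a peak in both (1.60% of all regions of this table). Among all regions of this comparison, 85.9% had a peak in the TGF-β library alone and 12.4% in the NC library alone. After scaling the TGF-β library down 20.0-fold to equal totals, the log2 ratio of TGF-β over NC was 0.81 at Tfrc (-0.50 to 2.78), 0.02 at Slc7a11 (-1.39 to 1.93), 0.14 at Slc40a1 (-2.42 to 5.57) and 1.60 at Acsl4 (-0.50 to 7.34). All 4 intervals hold 0. One of 4 genes was past 2-fold higher and 0 lower, where 21.9% of all genes were higher and 12.4% lower. Without scaling 4 of 4 were higher, as were 93.0% of all genes (2.34% lower). Scaling to regions called in both libraries moved the ratios of this comparison up by 0.57 before the pseudocount.

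Other genes of the pathway were read from 3 lists. In the c-JUN comparison 1 of 26 listed genes of iron uptake, transport and storage was past 2-fold lower and 0 higher, and among glutathione and antioxidant genes (17 listed) and lipid substrate and peroxidation genes (15 listed) 0 were past 2-fold, where 4.30% of all genes were lower and 3.12% higher. Their median c-JUN ratios were -0.09, 0.10 and 0.01, beside -0.02 for all genes. For SMAD3, where 18.5% of all genes were lower and 24.9% higher, 4 of 21 iron genes were lower and 3 higher, 0 of 14 antioxidant genes lower and 5 higher, and 3 of 16 lipid genes lower and 5 higher, with medians of 0.21, 0.88 and 0.20 beside 0.17 for all genes. For NFATC2 the counts lower and higher were 3 and 9 of 25, 1 and 2 of 15, and 1 and 5 of 17, with medians of 0.58, 0.58 and 0.48 beside 0.17 for all genes (14.2% lower and 23.7% higher). For H3K9lc they were 2 and 0 of 14, 1 and 1 of 11, and 1 and 3 of 15, with medians of -0.27, -0.15 and -0.24 beside -0.06 (6.37% lower and 6.31% higher). For TGF-β over NC they were 2 and 3 of 14, 3 and 1 of 10, and 0 and 2 of 13, with medians of 0.39, -0.41 and 0.68 beside 0.32 (12.4% lower and 21.9% higher).

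The most-read of these genes for c-JUN, 3 from each list, had c-JUN ratios between -0.13 and 0.25. Bach1, a repressor at AREs that acts on Hmox1, had 2006 and 1115 c-JUN reads over 22 regions (0.04, -0.06 to 0.15). Its SMAD3 reads were 34 and 45 (0.89, 0.22 to 1.59) over 7 regions, 4 of them listed through a siHK1 peak alone and 2 through a TGF-β peak alone. Its NFATC2 reads were 39 and 41 (0.76, 0.10 to 1.44) over 12 regions, of which 8 and 4 were so listed. Its 1 H3K9lc region, listed through a TGF-β peak alone, had 18 and 4 reads (-1.26, -3.38 to 0.24). Slc39a14, an importer of iron not bound to transferrin, had 1177 and 579 c-JUN reads (-0.13, -0.28 to 0.01), and its SMAD3 reads were 24 and 32 (0.89, 0.10 to 1.74) over 8 regions, 6 listed through a siHK1 peak alone and 2 through a TGF-β peak alone. c-JUN ratios were -0.03 at Bmp6, 0.17 at the mitochondrial iron importer Slc25a37, 0.16 at Nfe2l2, which encodes NRF2, 0.17 at Srxn1, 0.11 at Por, 0.25 at Vdac2 and 0.04 at Acsl1. Por, an electron donor to lipid-oxidising enzymes, had 12 and 18 H3K9lc reads (1.33, 0.26 to 2.58) over 2 regions, 1 listed through each library alone. Also past 2-fold in a siHK1 comparison were Srxn1, with NFATC2 reads of 12 and 3 (-1.17, -3.77 to 0.59) and SMAD3 reads of 7 and 11 (1.07, -0.35 to 2.75), and Slc25a37, with NFATC2 reads of 5 and 7 (1.07, -0.69 to 3.18), each over regions listed through the library with more reads alone. Bmp6 had 4 and 0 NFATC2 reads. For TGF-β over NC, 2 of these genes were past 2-fold, Bmp6 with 6 and 276 reads (1.14, 0.06 to 2.66) over 8 regions, 7 of them listed through a TGF-β peak alone and 1 through an NC peak alone, and Bach1 with 3 and 20 reads (-1.22, -3.34 to 0.81). Acsl1 had 57 and 30 SMAD3 reads (-0.43, -1.12 to 0.23).

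As a check of the labelled cell type, promoter c-JUN regions were listed for 8 of 8 fibroblast markers (23 to 235 reads each in the TGF-β library), 1 of 5 cardiomyocyte markers (Myh6, 84 reads), 3 of 4 endothelial markers (Pecam1, Cdh5 and Tie1, 21 to 71 reads), 2 of 5 macrophage and blood markers (Cd68 and Csf1r, 66 to 204 reads) and 0 of 3 smooth muscle and pericyte markers. The macrophage range lies within that of the fibroblast markers. Factor binding at a promoter is not expression, and no RNA was measured in these libraries. The part of other cells in the results was not tested.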

How the data were processed

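CUT&Tag reads were processed by the authors; the study's methods name Bowtie2, MACS2, spike-in DNA and GRCm39, whereas the submitters' processing notes name BWA 0.7.12 and mm10. Transcript coordinates in all 5 tables were those of GENCODE M21 on GRCm38 for 100.0% of transcripts found there, so GRCm38 is used. The deposited counts are raw reads per region in each library; a 0 or 1 mark gives a called peak, and gene symbols and classes are the authors' nearest-start annotation. Columns of the authors' own log2 ratios, p-values and calls were not used, nor were 2 columns of a library not in the labels. Rows without a gene (45 to 83 a table, 0.0492 to 0.123% of reads) were left out of totals and gene sums.

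Counts were summed per gene, the library with more listed reads was scaled to the total of the other, and log2 ratios took a pseudocount of 0.5. Intervals are exact (Clopper-Pearson for shares and ratios, Poisson for densities) at 95%. With 1 library per condition no test was made; a gene past 2-fold was counted. Ratio code was tested on simulated data. The sum of reads over listed regions is not the sequencing depth, which the files do not give. Members and lists were chosen with earlier results of these data known. Named were all members, their most-read and promoter-class regions, the 3 other genes per list with most c-JUN reads, and genes of like pattern; further regions of a gene were named after their values were seen. Motifs were searched in RefSeq promoters and in the central 300 bases of c-JUN regions, the latter added later. Member counts in those windows cover the 6 genes with such promoter entries. Alternatives covered scaling, pseudocount, threshold, region choice and overlap; distance within 50 kb and totals without the 100 most-read regions were added after seeing the data. Python 3.11.15, numpy 2.4.6, pandas 2.3.3, scipy 1.17.1 and matplotlib 3.10.9 were used. One library, titled TGF, has no antibody in its labels and entered no comparison.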

Additional observations from a re-analysis of the deposited data

Results flagged for a closer look

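One library, titled TGF, has no antibody in its labels and entered no comparison. Its regions near the 9 genes are given as values. It listed 227 regions under these symbols, with a peak called at 58 of them and 133 reads in those. Of these, 7 regions had more reads than the 3 that a count of 0 allows. The region 370 kb upstream of Slc7a11 (chr3:50813744-50814279) had 18 reads, at the place where SMAD3 and NFATC2 had their most-read region of this gene. Other Slc7a11 regions had 4 reads each, at chr3:50125145-50125297, chr3:50229101-50229560, chr3:50597596-50597769 and chr3:50737573-50737817. One Fth1 region (chr19:9966399-9966576) had 5 reads and 1 Ftl1 region (chr7:45456088-45456304) had 4. As the antibody is not given, no control library is set beside them.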

How the results depend on the processing

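No paired analysis was possible because a single library stood for every condition and antibody, and so no replicate could be left out. Of 279 values of single members under the alternatives, 255 stayed within the counting interval of the main value, and the others moved out of it. A change of sign was seen in 26 of the 279, of which 10 lay outside the counting interval. One was of a gene past 2-fold: Hmox1 for SMAD3 had -0.36 with regions within 3 kb of a start, since the upstream regions are left out there. Without scaling 9 values changed sign, 6 of them outside the interval (c-JUN at Hmox1, Acsl4, Fth1, Gpx4 and Slc7a11, at -0.61, -0.77, -0.70, -0.58 and -0.87, and H3K9lc at Acsl4, at -0.72). With the most-read region 7 did, 3 of them outside the interval (SMAD3 at Fth1, -0.59, and Slc7a11, 0.08, and NFATC2 at Hmox1, 0.80). Without scaling, which leaves the difference in listed reads in place, the median member ratios were -1.12 (H3K9lc), -0.70 (c-JUN), 0.09 (SMAD3), -0.81 (NFATC2) and 4.61 (TGF-β over NC), and 2 of 4 H3K9lc genes (both lower), 2 of 9 c-JUN genes (both lower, against 1 higher with scaling) and 4 of 4 TGF-β over NC genes (all higher) were past 2-fold, and for NFATC2 4 genes were lower and 0 higher. Without scaling 34.7% of all H3K9lc genes, 39.2% of c-JUN genes and 30.5% of NFATC2 genes were lower, and 93.0% of TGF-β over NC genes were higher. Scaling to equal totals takes out any change shared by all regions. With regions within 3 kb of a start the medians were 0.37 over 8 genes (c-JUN), -0.07 over 4 (SMAD3) and 0.47 over 3 (NFATC2). Past 2-fold were 2 c-JUN genes (1 lower, 1 higher), 1 SMAD3 gene (lower) and 0 NFATC2 genes, and no H3K9lc region was left. Shares of all genes past 2-fold were not computed for the alternative region choices, so these counts have no background beside them. With the most-read region of each gene the medians were 0.05 (c-JUN), -0.07 (SMAD3) and 0.43 (NFATC2), and 2 genes were past 2-fold for TGF-β over NC. With regions at or above the table median, 0 of 7 c-JUN genes and 2 of 6 SMAD3 genes were past 2-fold. Within 50 kb of the gene start the SMAD3 median was 0.21 over 7 genes, and 0 of 3 genes were past 2-fold for TGF-β over NC. For SMAD3, 3 genes were then past 2-fold lower and 1 higher. The added lower gene was Slc7a11 at -1.85, where the region left had 12 and 2 reads and a TGF-β peak alone. Where the counting interval also had to exclude 1, 1 c-JUN gene (Tfrc), 1 SMAD3 gene (Hmox1), 2 NFATC2 genes (Slc40a1 and Fth1), 0 H3K9lc genes and 0 TGF-β over NC genes were past 2-fold, and all regions of the 4 genes named were listed through 1 library alone, the one with more scaled reads in the gene's sum. TGF-β over NC gave 2 genes at 1.5-fold and 2 with scaling to regions called in both libraries. Shares of all genes were not computed for these settings or for the rule on the counting interval, so the counts cannot be set beside a background. Pseudocounts of 1 and 0.1 and totals without the 100 most-read regions left every single member's value inside its counting interval. The overlap share was 19.1% with at least 50% of the shorter region shared, and the promoter share went from 19.1% to 14.8% within 1 kb. Few reads limited SMAD3 and NFATC2, where most member regions had under 10.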
